A study of Homo sapiens with 12 samples.

Results

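Histone genes were examined in RNA sequencing tables of 3 human breast cell lines, MCF-10A, MDA-MB-231 and LM2. Every gene whose symbol begins with HIST in the table of any cell line was taken, which gave 12 of the 3090 distinct genes listed in the 3 tables. Of these 12 genes, 1 encodes a linker histone H1, 3 encode H2A, 2 encode H2B, 5 encode H4 and 1 is an H2A pseudogene. No gene of the H3 class was among them. MCF-10A had 8 of them listed, and MDA-MB-231 and LM2 had 3 each.

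MCF-10A is a non-malignant mammary epithelial line, MDA-MB-231 comes from a triple negative breast carcinoma, and LM2 was derived from the latter line. Cells of the constriction group were driven by hydrostatic pressure through channels of 5 µm in width and height and 150 µm in length and were collected for RNA straight after transit, whereas control cells did not pass the channels. Each cell line had 2 constriction and 2 control libraries, 12 in all, which the study describes as repeated experiments. The comparison asks how gene expression differs after a passage the size of a capillary.

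Histones package DNA into chromatin. Core histones H2A, H2B, H3 and H4 form the protein spool of the nucleosome, and linker histone H1 binds where DNA enters and leaves it. Most histone genes lie in clusters, are transcribed mainly while DNA is replicated, and give mRNAs that end in a conserved stem-loop in place of a poly(A) tail, although polyadenylated forms of some of them exist. The libraries were made from poly(A)-selected RNA, so counts of such genes may represent only the polyadenylated share of their mRNAs, and this was not tested.

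Of the 12 genes, 10 lay on chromosome 6 between positions 26021679 and 27824480 (GRCh38), a span of 1.80 Mb. HIST2H2AC lay on chromosome 1 and HIST4H4 on chromosome 12. The sequences shown next are those that set the genes apart or link them. First comes the 3′ stem-loop, whose presence in the annotated transcripts differed between the genes. The upstream DNA of the linker gene and of the closest pair of core genes follows. The stem-loop was found in an annotated transcript (GENCODE release 29) of 8 of the 12 genes, in 32 of the 71 protein-coding genes of the annotation whose symbol begins with HIST (45.1%), and in 58 of all 19922 protein-coding genes (0.291%). Loop bases are in capitals and stem bases in lower case.
HIST1H2AE, HIST1H2AI, HIST1H2BG and HIST1H2BH: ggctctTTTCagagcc
HIST1H4H, HIST1H4J and HIST4H4: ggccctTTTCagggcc
HIST1H4I: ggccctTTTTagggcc

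All 7 genes that were lower after transit in MCF-10A carried the stem-loop. It was not found in the annotated transcripts of HIST1H1E, HIST1H4A, HIST2H2AC or HIST1H2APS5, and those of HIST1H4A and HIST2H2AC are only 3 bases longer than the coding sequence. An absent match therefore says only that these letters were not in the annotated transcript. The same limit applies to the 45.1% of HIST genes, so that share does not show how many of them lack the stem-loop. Whether the stem-loop goes with the direction after transit was not tested.

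Upstream DNA was taken from RefSeq (GRCh38.p14), in which 10 of the 12 genes were matched. Capitals mark a TATA-box sequence (TATAAA), the CCAAT box and a sequence known from H1 promoters (AAACACA). These were searched on both strands, so that TTTATA and ATTGG are matches on the opposite one. In the 250 bases upstream of the start, TATAAA was present in 7 of the 10 genes and in 10.7% of 35116 promoters, and CCAAT in 7 of the 10 and 32.0% of promoters. The match lay 29 to 32 bases before the start in 5 of the 7 genes with TATAAA, whereas it lay 206 bases before that of HIST1H2AE and 250 bases before that of HIST4H4. The windows of HIST1H2BG and HIST1H2AE share 232 of their 250 bases, so the same TATAAA and the same CCAAT matches are counted for both genes. The H1 sequence was present in 1 of the 10, HIST1H1E, and in 4.82% of promoters. The upstream bases of HIST1H1E (chr6:26156079-26156328, plus strand) hold all 3 motifs.
HIST1H1E: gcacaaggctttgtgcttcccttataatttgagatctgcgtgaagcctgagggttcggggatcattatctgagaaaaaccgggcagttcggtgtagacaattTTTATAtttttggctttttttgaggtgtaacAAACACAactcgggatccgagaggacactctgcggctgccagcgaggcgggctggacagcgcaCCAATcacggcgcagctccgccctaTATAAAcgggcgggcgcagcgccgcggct

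HIST1H2BG and HIST1H2AE are transcribed away from each other, and their annotated ends are 282 bases apart. The stretch between their RefSeq starts (chr6:26216689-26216920, plus strand, 232 bases) holds 1 TATAAA and 3 CCAAT.
HIST1H2BG to HIST1H2AE: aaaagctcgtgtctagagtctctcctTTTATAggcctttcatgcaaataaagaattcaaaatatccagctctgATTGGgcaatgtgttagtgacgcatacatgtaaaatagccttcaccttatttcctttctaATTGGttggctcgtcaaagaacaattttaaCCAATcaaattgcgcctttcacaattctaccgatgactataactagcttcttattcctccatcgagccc

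Library totals ranged from 29978695 to 53584754 reads. The study reports much less total RNA for constriction than for control samples in both repeats of MDA-MB-231 and of LM2. For MCF-10A it reports less in repeat 1 and more in repeat 2. The part of these RNA amounts in the counts was not tested. The tables list only genes selected on these same libraries at an unadjusted p-value under 0.05, so a histone gene that is missing from a table was not analysed here, and the tests below describe selected genes rather than giving independent evidence. Of the 2680 genes listed in MCF-10A, 94.5% were lower after transit, and for 2402 of them (89.6%) neither constriction library held a read. All 147 genes that were higher in MCF-10A had a larger normalised count in constriction replicate 1 than in constriction replicate 2, and in 86 of them replicate 2 did not exceed both controls. The 8 epithelial markers looked for were in none of the tables, so the line labels could not be checked from them. Of 7 markers of mesenchymal-like carcinoma cells, only the collagenase gene MMP1 was listed, in MDA-MB-231, with normalised counts of 24.4 and 7.39 after transit and 59.6 and 46.4 in the controls. Its log2 difference was -1.68, and it was not called by edgeR (adjusted p = 1, also with the replicate block). Of 6 markers of leukocytes, endothelial cells and fibroblasts, PECAM1 and PDGFRB were listed in MCF-10A, with summed reads of 93 and 70 in the controls and 0 in both constriction libraries, and their part in the histone values was not tested. The tables do not separate fewer cells that express a gene from less RNA per cell.

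In MCF-10A, 7 core histone genes had reads in both control libraries and none in either constriction library, and 1 further gene, HIST2H2AC, was high in a single constriction library by the deposited size factors. Values are read counts, given with the fold as a bound computed from normalised counts (reads divided by the library's size factor) against a floor of 3 reads per library, because no read was found after transit. The 7 genes comprise 2 of H2A, 2 of H2B and 3 of H4. No linker H1 gene was listed in MCF-10A.

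Among the H2A genes, whose protein pairs with H2B in the nucleosome, HIST1H2AE had 44 and 24 reads in the controls and 0 and 0 after transit, which is at least 9.23-fold lower, and at least 5.64-fold lower without control replicate 1. HIST1H2AI had 18 and 19 reads in the controls and 0 and 0 after transit, at least 4.85-fold lower. The groups did not overlap for either gene. Of the 100-base windows of HIST1H2AI, 57.7% are identical in HIST1H2AJ, so its reads could have been split or discarded and its count is uncertain.

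For H2B, HIST1H2BG had 56 and 38 reads in the controls and 0 and 0 after transit, at least 12.6-fold lower. Without control replicate 1 that bound was 8.93-fold. HIST1H2BH had 27 and 25 reads in the controls and 0 and 0 after transit, at least 6.87-fold lower. Both constriction libraries were below both controls for each.

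Among the genes of H4, which pairs with H3 at the centre of the nucleosome, HIST1H4H had 70 and 29 reads in the controls and 0 and 0 after transit, at least 13.6-fold lower, and at least 6.81-fold lower without control replicate 1. HIST4H4 had 19 and 21 control reads and 0 and 0 after transit, at least 5.23-fold lower. HIST1H4J had 12 and 8 control reads and 0 and 0 after transit, with a bound of only 2.69-fold lower. Without control replicate 1 that bound was 1.88-fold. The control libraries of HIST1H4H differed from each other more than those of HIST4H4, and the groups did not overlap for any of the 3 genes. HIST1H4J shares 77.7% of its 100-base windows with HIST1H4K, which makes its count uncertain. The coding sequences of the 5 listed H4 genes, each 309 bases long, were 81.2% to 90.3% identical over their 10 pairs.

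HIST2H2AC, an H2A gene on chromosome 1, was counted 627 and 32 times after transit against 39 and 49 times in the controls. The corresponding normalised counts were 756 and 33.1 after transit and 38.2 and 38.7 in the controls. With these size factors constriction replicate 1 was high, constriction replicate 2 lay below both controls, and the groups overlapped. The difference was 3.33 on the log2(mean normalised count + 1) scale, with a standard error of 1.32 from the spread between libraries, and without constriction replicate 1 its direction turned to -0.21. With TMM factors of the listed genes in place of the deposited size factors, the difference was 1.07. The values were then 72.2 and 167 after transit and 51.7 and 61.3 in the controls, so that replicate 2 was the higher of the constriction libraries and the groups did not overlap. Scaled to the library total and gene length instead, the values were 53.6 and 2.31 after transit and 2.77 and 2.71 in the controls. Replicate 1 was again the high library. The TMM factors came from the listed genes alone, of which 89.6% had no read in either constriction library. Replicate 2 was the higher constriction library under those factors only. Of its windows, 17.2% are shared with HIST2H2AA3 and HIST2H2AA4.

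**Figure D1:**
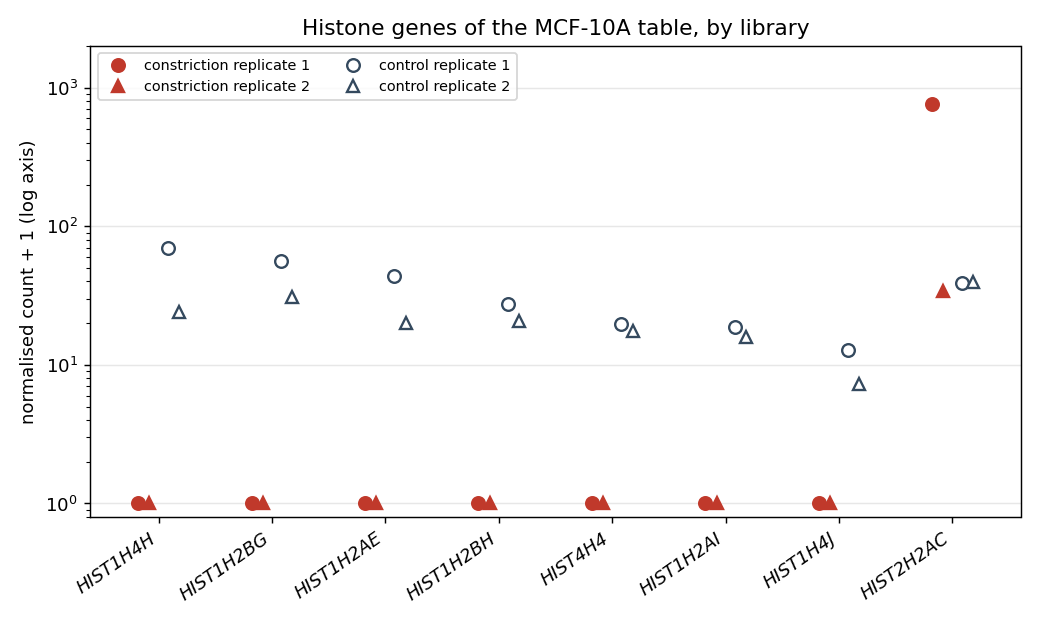
Normalised count plus 1 (log axis) of the 8 histone genes of the MCF-10A table, each point 1 of the 2 constriction (filled) or 2 control (open) libraries. For 7 genes both constriction libraries sit at 0 reads, drawn at 1, below both controls, whereas HIST2H2AC reaches 756 in constriction replicate 1 only.

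Of the 8 MCF-10A genes, 7 passed edgeR's quasi-likelihood test with Benjamini-Hochberg adjustment in the lower direction, each with an adjusted p of 0.00469, beside 91.3% of all genes in the table. HIST2H2AC did not pass, with an adjusted p of 1 and a range of 0.0981 to 1 over the alternatives. Over the alternatives, the adjusted p of the 7 genes ranged from 0.000653 to 0.742. Groups did not overlap for 7 of the 8, beside 96.8% of the table. With the replicate number as a block, 5 of the 8 passed, beside 74.2% of the table, and HIST1H2BG (adjusted p = 0.0933) and HIST1H4H (adjusted p = 0.122) did not, by the same edgeR test. When constriction replicate 1, constriction replicate 2 or control replicate 2 was left out, 0 of the 8 passed in edgeR, beside 0%, 2.57% and 0.149% of the table. Without control replicate 1, 4 of the 8 passed, beside 20.8% of the table. Each of these fits left 1 group with a single library, which was assumed to vary like the other group, so the fewer calls do not show that the differences rest on the library left out. The median log2 difference of the 8 genes was -4.40, beside -4.05 over the table, and with genes at 0 reads set to their bound it was -2.58 beside -2.27.

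Levels of different genes were set side by side per length, as FPKM (fragments per kilobase of gene, scaled to the library total). In the MCF-10A controls HIST2H2AC had the highest FPKM of the 8 genes, 2.77 and 2.71, followed by HIST1H2AE with 2.39 and 1.02. HIST1H2AI, HIST1H2BG, HIST1H4J, HIST1H4H and HIST1H2BH followed with mean FPKM of 0.902, 0.772, 0.676, 0.592 and 0.312, and each of these overlapped its neighbour in that order. HIST4H4 was lowest, at 0.204 and 0.175 FPKM, and did not overlap HIST1H2BH, nor did HIST1H2AE overlap HIST2H2AC or HIST1H2AI. The annotated lengths behind these values range from 373 bases for HIST1H4J to 2578 bases for HIST4H4.

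In MDA-MB-231, the linker gene HIST1H1E and the H4 gene HIST1H4A were higher after transit, the direction of 66.7% of the listed genes, and the H4 gene HIST1H4I was lower. HIST1H1E, which encodes histone H1.4, was counted 170 and 139 times after transit against 32 and 53 times in the controls. The normalised counts were 166 and 128 after transit and 40.6 and 45.6 in the controls. Both constriction libraries lay above both controls, and the mean was 3.42-fold higher, a log2 difference of 1.75 with a standard error of 0.20.

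HIST1H4A was counted 38 and 27 times after transit against only 2 and 3 times in the controls. The normalised counts were 37.1 and 24.9 after transit and 2.54 and 2.58 in the controls. The groups did not overlap, and the ratio of pooled reads, corrected for library size, was 12.04 with an exact 95% counting interval of 4.90 to 38.3. That interval covers counting error only, not the spread between libraries.

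HIST1H4I, the gene with the most reads of the 12, was counted 493 and 680 times after transit against 591 and 1009 times in the controls. After division by the size factors the values were 482 and 628 after transit and 750 and 868 in the controls. The normalised groups did not overlap although the raw reads did, and the mean was 1.46-fold lower, a log2 difference of -0.54 with a standard error of 0.22. Among the listed H4 genes with a stem-loop in an annotated transcript, HIST1H4I alone had the loop TTTT. The annotated transcript of HIST1H4A has 312 bases, 309 of them coding, and held no match. The search therefore could not show whether HIST1H4A and HIST1H4I differ in the stem-loop.

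By edgeR's quasi-likelihood test with Benjamini-Hochberg adjustment, 0 of the 3 MDA-MB-231 genes passed, beside 0.262% of the 381 listed genes. All 3 had an unadjusted p under 0.05 in edgeR, as did 94% of the table. DESeq2 called 0 of 3, beside 2.36% of the table, and limma called 0 of 3, beside 0%. With the replicate block HIST1H1E passed, with an adjusted p of 0.0376 in edgeR, beside 22.6% of the table, and HIST1H4A (0.0957) and HIST1H4I (0.140) did not. Over all alternatives the edgeR, DESeq2 and limma adjusted p of HIST1H1E ranged from 0.0225 to 1. With adjustment over the table alone, which leaves out the unlisted genes, 3 of 3 passed in edgeR, beside 92.9% of the table. The edgeR adjusted p was then 0.0225 for HIST1H1E and HIST1H4A and 0.0433 for HIST1H4I. Groups did not overlap for 3 of 3, beside 94.5% of the table. The median log2 difference of the 3 genes was 1.75, beside 1.08 over the table.

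In LM2, all 3 histone genes were higher after transit, as were 53.6% of the listed genes. HIST1H1E was counted 77 and 100 times after transit against 2 and 17 times in the controls. The normalised counts were 89.1 and 95.4 after transit and 1.76 and 17.2 in the controls. Both constriction libraries were above both controls, but the 2 controls differed widely from each other. The mean was 9.75-fold higher, a log2 difference of 3.16 with a standard error of 1.06, and leaving out 1 library in turn gave log2 differences of 2.36 to 5.08. The highest was found without control replicate 2, and the lowest without control replicate 1.

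HIST1H4A was counted 15 and 18 times after transit against 2 and 1 times in the LM2 controls. The groups did not overlap, and the pooled ratio was 12.2 with an exact 95% counting interval of 3.83 to 62.3. HIST1H2APS5, an unprocessed H2A pseudogene 21998 bases from HIST1H4A, was counted 18 and 9 times after transit against 1 and 0 times in the controls. Its groups did not overlap either, and its pooled ratio of 30.0 had an interval of 4.95 to 1228, so the size of this difference was poorly determined.

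By edgeR's quasi-likelihood test with Benjamini-Hochberg adjustment, 0 of the 3 LM2 genes passed, beside 0% of the 97 listed genes. All 3 had an unadjusted p under 0.05 in edgeR, as did 41.2% of the table, and DESeq2 and limma called 0 of 3, beside 0% of the table for each. The replicate block called 0 of 3 in edgeR, beside 28.9% of the table. The adjusted p was 1 for each of the 3 genes and ranged from 0.109 to 1 over the alternatives. Groups did not overlap for 3 of 3, beside 82.5% of the table. The median log2 difference was 3.16, beside 1.21 over the table. That table median fell between a lower and a higher group of genes. The bin from 1.0 to 1.5 held 5 genes, and the bin from 3.0 to 3.5 held 14, the most among the higher genes.

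**Figure D2:**
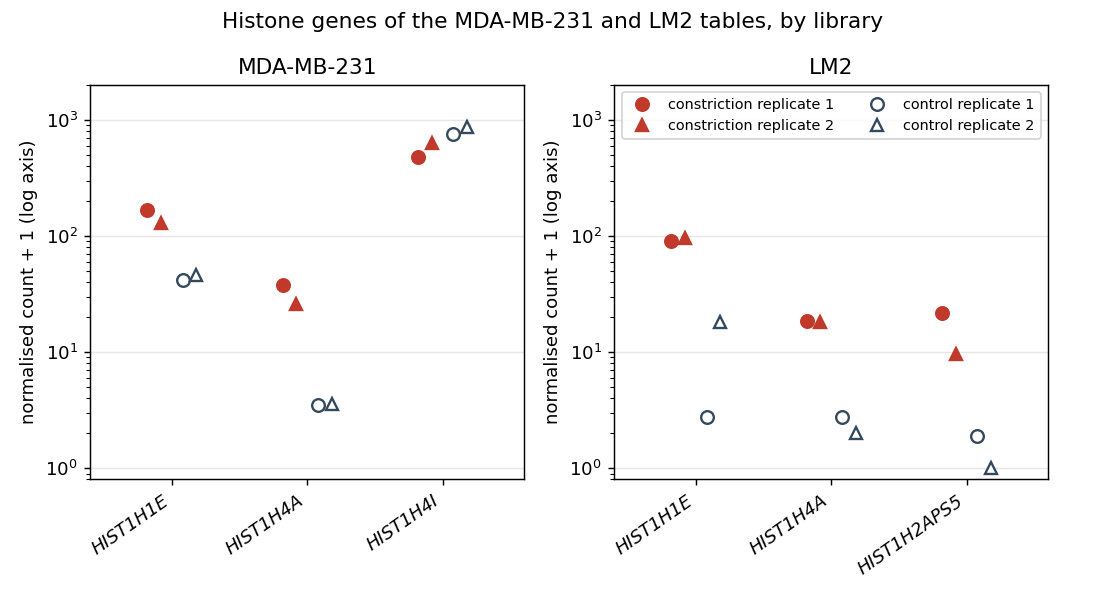
Normalised count plus 1 (log axis) of the histone genes of the MDA-MB-231 and LM2 tables, each point 1 library. HIST1H1E and HIST1H4A lie higher in both constriction libraries than in both controls of each line, HIST1H2APS5 does so in LM2, and HIST1H4I lies lower in MDA-MB-231.

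The linker gene HIST1H1E could be set beside the core genes HIST1H4A and HIST1H4I in MDA-MB-231 and beside HIST1H4A in LM2. In MDA-MB-231 its ratio was lower after transit against HIST1H4A and higher against HIST1H4I. In MDA-MB-231, HIST1H1E had 1.14 and 1.31 FPKM in the controls and 4.76 and 3.71 after transit. HIST1H4A had 0.172 and 0.179 FPKM in the controls and 2.57 and 1.74 after transit. The ratio of HIST1H1E to HIST1H4A was 6.62 and 7.31 in the controls and 1.85 and 2.13 after transit, and these ranges did not overlap, although HIST1H4A rested on 2 and 3 control reads. HIST1H4I, with many more reads, had 12.3 and 14.6 FPKM in the controls and 8.04 and 10.6 after transit. The ratio of HIST1H1E to HIST1H4I was 0.0929 and 0.0902 in the controls and 0.592 and 0.351 after transit, and these ranges did not overlap either. Ratios were not tested.

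In LM2, HIST1H1E had 0.0516 and 0.476 FPKM in the controls and 2.70 and 2.61 after transit, and HIST1H4A had 0.125 and 0.0677 in the controls and 1.27 and 1.14 after transit. The LM2 ratio was 0.414 and 7.03 in the controls and 2.12 and 2.30 after transit. The control ratios enclosed the ratios after transit, so no change of the ratio could be read in LM2. After transit, the ratio of HIST1H1E to HIST1H4A was 1.85 to 2.30 over the 4 constriction libraries of both lines. The tables of the lines were normalised separately, and no difference between lines was tested.

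**Figure D3:**
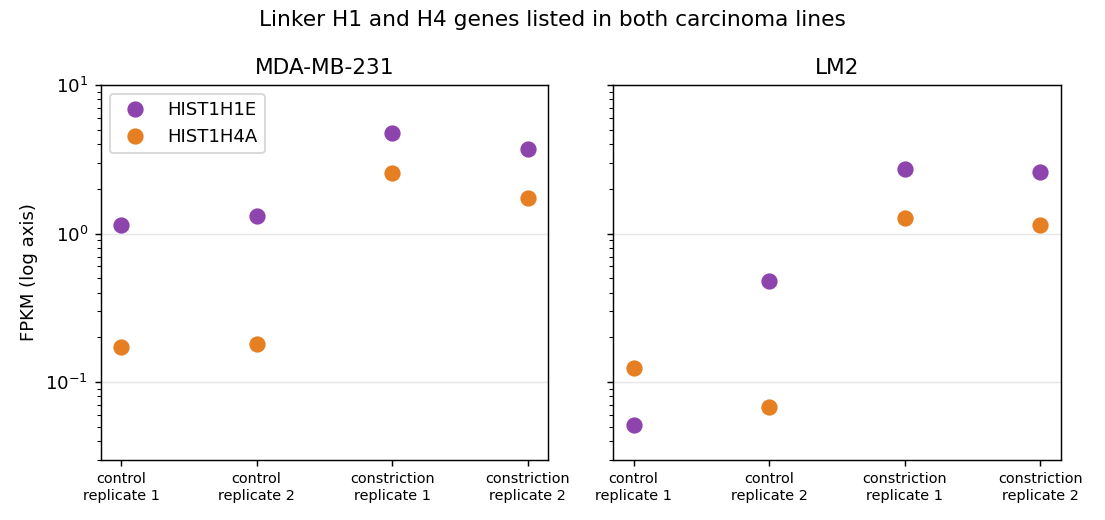
FPKM (log axis) of HIST1H1E and HIST1H4A in each control and constriction library of MDA-MB-231 and LM2. HIST1H1E lies above HIST1H4A in every library except LM2 control replicate 1, where it has 0.0516 against 0.125 FPKM.

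Across the 3 lines, 2 of the 12 genes were listed in more than 1 table, HIST1H1E and HIST1H4A, both in MDA-MB-231 and LM2 and both higher after transit in each. None of the 8 MCF-10A genes was listed in another line. Core genes were lower in 7 of 8 cases in MCF-10A, beside 94.5% of that table, and in 1 of 2 in MDA-MB-231, beside 33.3%. The single core gene of LM2 was higher, beside 53.6% of that table. Absence from a table does not show that a gene was unchanged, and the difference between cell lines was not tested.

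**Figure D4:**
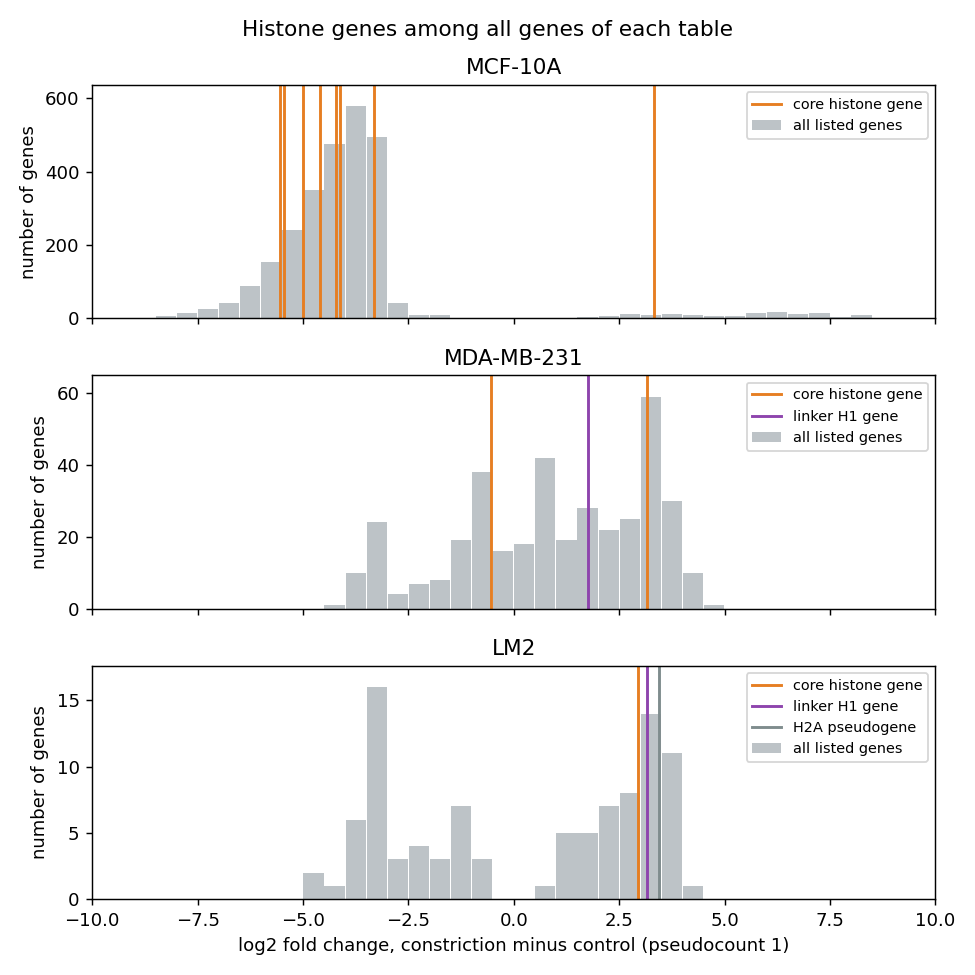
Number of listed genes by log2 difference of constriction minus control (pseudocount 1) in each cell line, in bins of 0.5, with vertical lines for the histone genes. The 7 lower MCF-10A genes lie within the bulk of that table, whose median is -4.05, and the LM2 genes lie in the higher of its 2 groups of genes.

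Related genes were looked up in lists. None of 20 histone genes with other symbols, 17 genes of histone mRNA transcription and 3′ processing, 20 histone chaperones or 23 S phase genes was listed in any table. Of 15 genes for methylation of histone H3 at lysine 4, 4 were listed, all in MDA-MB-231 and all with a higher mean after transit, as for 66.7% of that table. The methyltransferase gene KMT2D had normalised counts of 7782 and 8123 after transit and 5217 and 5416 in the controls, a log2 difference of 0.58. KMT2A, KMT2C and ASH1L differed by 0.43, 0.44 and 0.38 on that scale. None of the 4 was called by edgeR (adjusted p = 1 for each). With the replicate block KMT2D (adjusted p = 1.11e-06), KMT2A (0.00173) and KMT2C (0.00286) passed in edgeR and ASH1L (0.0530) did not, beside 22.6% of the table. Over the alternatives the lowest adjusted p of KMT2D, KMT2A and KMT2C was the blocked one, that of ASH1L was 0.0492, with adjustment over the table alone, and the highest was 1 for each of the 4.

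**Figure D5:**
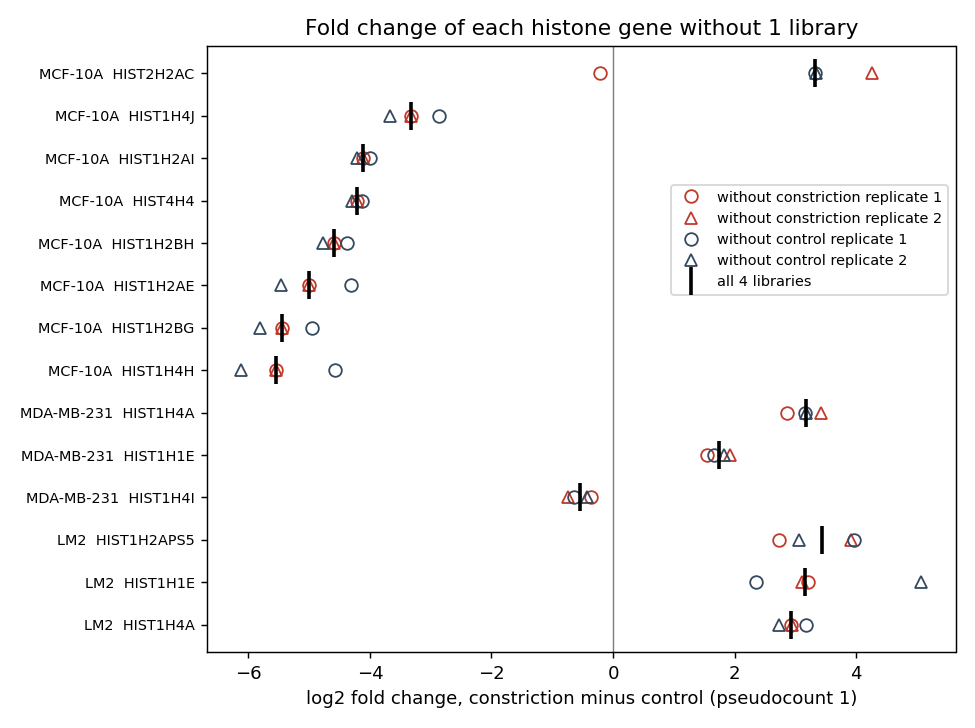
Log2 difference of constriction minus control (pseudocount 1) of each histone gene with all 4 libraries (black bar) and without each library in turn (open symbols). Only HIST2H2AC changes side of 0, at -0.21 without constriction replicate 1.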

How the data were processed

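Poly(A)-selected RNA of 12 libraries was sequenced. The authors filtered reads with fastp, aligned them to GRCh38 with HISAT2 2.0.5 and counted them per gene with featureCounts 1.5.0-p3, which gave the deposited read counts. The study describes directional and non-directional library preparation without saying which was used, so a gene's reads cannot be separated from those of an antisense partner. Within each cell line the authors scaled every library's counts by its DESeq2 1.20.0 size factor, and these quotients are the deposited normalised counts (signal), and computed the deposited FPKM from counts and gene length. The deposited log2 fold changes, p-values and adjusted p-values are those of the authors' own comparison. They were not used as results: the p-values served to check how the tables were selected and to recover the number of genes adjusted over.

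The 12 genes and the gene lists were chosen with earlier results of these data known. The named genes were all genes with a symbol starting with HIST and every listed gene of the lists. Positions of all 3158 entries matched GENCODE release 29. Library totals were computed from counts, FPKM and lengths. The test was edgeR 4.0.16 (quasi-likelihood, R 4.3.3) on the counts of all listed genes of a cell line with the deposited size factors, two-sided. Benjamini-Hochberg adjustment ran over 19236, 23976 and 30209 genes (MCF-10A first, then MDA-MB-231, then LM2), with unlisted genes entered at a p-value of 1. Calls were made at an adjusted p under 0.05. The script was checked on simulated data. Log2 differences used a pseudocount of 1. The design foresaw a bound for groups with 3 reads or fewer per library, but where 1 to 3 reads were present a ratio with an exact counting interval is given instead.

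Control and constriction cells of each repeat experiment are listed together by the study, so replicate numbers were taken to pair the libraries. For 1 LM2 constriction library, used here as replicate 2, the description says 1 and the title says 2. The correlation of deviations of same-numbered libraries from their group means was -0.0065 for the MCF-10A table, 0.0557 for the MDA-MB-231 table and 0.171 for LM2. Alternatives were limma 3.58.1 with pseudocounts of 0.5, 1 and 10, DESeq2 1.42.0, TMM factors, a minimum mean normalised count of 10, adjustment over the table alone, the replicate block, each library left out and, chosen after seeing the data, edgeR's newer quasi-dispersion estimate. The older estimate, planned as an alternative, is the default of the installed version and so was the one used throughout. Fold changes were also computed with pseudocounts of 0.5 and 10 and from FPKM with a pseudocount of 0.1.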

Additional observations from a re-analysis of the deposited data

How the results depend on the processing

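All calls are adjusted p-values under 0.05 in edgeR unless another tool is named. In MCF-10A, 7 of 8 histone genes and 2451 of 2680 listed genes were called. With the newer dispersion estimate these numbers were 4 and 1302, with a minimum mean normalised count of 10 they were 4 of the 5 histone genes left and 895 of the 1209 genes left, and with limma at a pseudocount of 10 they were 0 and 0. Limma at a pseudocount of 1 called 1611 listed genes and 7 histone genes. Leaving out 1 library gave 0 to 4 histone genes and 0 to 557 listed genes, with 4 and 557 without control replicate 1. Such a fit takes its spread from the other group alone, with fewer samples behind it whichever library is left out. In MDA-MB-231, 0 histone genes and 1 listed gene were called. Adjustment over the table alone gave 3 and 354. Listed genes called were 15 with TMM factors, 2 with the minimum count, 9 with DESeq2, 0 with each limma pseudocount and 0 to 8 without 1 library. In LM2, 0 were called, and the same held under every alternative other than the block. The pairing by replicate block gave 5 histone and 1989 listed genes in MCF-10A, 1 and 86 in MDA-MB-231, and 0 and 28 in LM2.

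The number of histone genes lower after transit stayed within a factor of 1.5 with TMM factors and without each library. HIST2H2AC alone reversed, to -0.21 (edgeR adjusted p = 1) without constriction replicate 1, and it was 4.26 (edgeR adjusted p = 0.0981) without constriction replicate 2. TMM factors of the listed genes changed the mean log2 scaling of constriction against control libraries by -1.08 (MCF-10A), -0.41 (MDA-MB-231) and 0.19 (LM2), and no histone gene changed direction under them, although HIST2H2AC moved from 3.33 to 1.07. In MCF-10A these factors were 8.69 and 0.191 for the 2 constriction libraries. The size of the log2 differences depended on the pseudocount, and none changed direction with it. The median over the histone genes, -4.40 in MCF-10A, was -5.37 with a pseudocount of 0.5, -1.60 with 10 and -2.87 from FPKM. The MDA-MB-231 median of 1.75 became 1.76, 1.57 and 1.71 (HIST1H4A 1.71 with a pseudocount of 10), and that of LM2, 3.16, became 3.24, 1.26 and 2.92. The cause of these changes was not tested. With 2 libraries a group and control counts as low as 8 reads, the bounds for the lower genes are limited by depth. These bounds were computed with the deposited size factors only.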

Other observations

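Genes listed within 100 kb of a histone gene of the same table were found in MCF-10A only, where there were 3. AC010168.2, which ends 68 bases from HIST4H4 on chromosome 12, was counted 0 and 0 times after transit against 19 and 21 times in the controls, the same 4 numbers as HIST4H4. C12orf60 was counted 0 and 0 times after transit against 41 and 68 times in the controls. LINC01012, 97977 bases from HIST1H2AI, was counted 0 and 0 times after transit against 38 and 70 times in the controls.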
